A study of Ovis aries with 2 samples.

Results

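FOXP3-positive CD4 regulatory T cells (Treg cells) of sheep blood were taken here as the barcodes of a droplet single-cell RNA data set that carried T-cell transcripts, CD4 and at least 1 UMI of FOXP3. A UMI (unique molecular identifier) tags 1 captured RNA molecule, and a barcode stands for 1 droplet, usually 1 cell. A barcode had to hold at least 200 genes, at most 15% mitochondrial UMIs, at least 1 UMI of CD3D or CD3E, at least 1 of CD4, none of CD8A or CD8B, and at most 1 of the B-cell genes MS4A1, CD79B and PAX5. By this rule 85 of 17884 barcodes were members, 31 of 8246 in the untreated library and 54 of 9638 in the A.G.-ES library. The comparison group was the 387 untreated and 1620 A.G.-ES barcodes that met every other condition and had 0 FOXP3 UMIs, called FOXP3-zero CD4 T barcodes below.

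Both libraries came from mononuclear cells of sheep peripheral blood, used fresh and without culture. The animals of the untreated group received nothing, and those of the A.G.-ES group had material embedded at the acupuncture point ST36 on both sides. The series title describes it as a suture that elutes astragaloside IV and glycyrrhizic acid, places the work in weaned lambs, and names the balance of Treg and Th17 cells as its subject. The labels give 1 library per group, with no age and no number of animals per library.

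FOXP3 is the transcription factor that defines the Treg lineage. Treg cells restrain other lymphocytes, in part through CTLA4, an inhibitory receptor that removes costimulatory ligands from antigen-presenting cells, and through the high-affinity interleukin-2 receptor, whose alpha chain is IL2RA. They signal through STAT5 when they bind interleukin-2, and usually carry little of the interleukin-7 receptor IL7R. In blood they are a minority of CD4 T cells.

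With 1 library per treatment, no test between treatments was possible, and any difference between the animals cannot be told apart from the treatment. The libraries held 55861418 (untreated) and 44485442 (A.G.-ES) UMIs, with medians of 5200 and 4165 UMIs per barcode as deposited. Among the members, UMIs from 85 genes that RefSeq places on the Y chromosome numbered 186 for the untreated library, spread over 31 of 31 members, and 6 in the A.G.-ES library, spread over 6 of 54. The libraries therefore also differed in Y-linked transcripts, and that difference and the treatment cannot be told apart. The libraries shared 61 barcode sequences, of which 0 were members. Intervals are at 95% and cover no error other than that of counting.

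The members were of ordinary depth for CD4 T barcodes. Their median was 4952 UMIs and 1858 genes in the untreated library and 4523.5 UMIs and 1605.5 genes in the A.G.-ES library, against 5127 and 4625.5 UMIs in FOXP3-zero barcodes. Their UMI totals ran from 1993 to 10972 and from 1398 to 18113. The median mitochondrial share was 1.30% and 2.02%, and 1.36% and 2.15% in FOXP3-zero barcodes. Most members sat at the edge of the rule: 22 of 31 and 46 of 54 had exactly 1 FOXP3 UMI, and 18 and 30 had exactly 1 CD4 UMI. The highest FOXP3 count was 4 UMIs, in 2 untreated members and 1 A.G.-ES member.

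Of the A.G.-ES members, 2 carried transcripts of other cell types in bulk. The member with 18113 UMIs held 16 of 16 member UMIs of TYROBP, 14 of 14 of AIF1 and 107 of 139 of CST3, which are abundant in myeloid cells. A member with 6057 UMIs held 32 of 39 UMIs of GNLY and 24 of 29 of CCL5, genes of cytotoxic lymphocytes. Both were among the 5 A.G.-ES members (0 untreated) that a doublet caller placed in its highest scores, and results that rest on them are given with and without these barcodes. Among 8 monocyte markers outside the rule, all 8 were at 0 in untreated members, and A.G.-ES members held 3 UMIs in all, with CD14, CSF1R, CD68, S100A8 and S100A9 at 0. Of 6 B-cell markers outside the rule, 4 had a UMI in untreated members and 3 in A.G.-ES members, at a summed level of 95.4 and 52.9 UMIs per 1000000 (CPM) against 120 and 66.4 CPM in FOXP3-zero barcodes. CD8 T and NK markers summed to 76.3 and 310 CPM against 58.1 and 281 CPM, and 71 of the 88 UMIs in A.G.-ES members lay in 1 barcode. Platelet markers summed to 12.7 and 7.05 CPM against 46.7 and 20.7 CPM. The list of SOX13-high gamma-delta-like T markers summed to 2207 and 1866 CPM against 1341 and 1168 CPM, GATA3 held 327 of 347 and 524 of 529 of the member UMIs, and SOX13 itself had 0 UMIs in untreated members and 1 in A.G.-ES members. Counts of calls were recomputed without the barcodes taken as doublets and without barcodes holding a B-cell gene of the rule, and the part of the other types in the results was not tested.

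FOXP3-positive barcodes made up 7.42% of CD4 T barcodes in the untreated library (31 of 418, Clopper-Pearson interval 5.09% to 10.4%) and 3.23% in the A.G.-ES library (54 of 1674, interval 2.43% to 4.19%). The untreated share was higher and the intervals did not overlap, but FOXP3 is what the rule used, and this is a description of 2 libraries. With each barcode thinned to 1500 UMIs, so that depth was equal, the shares were 2.68% (11 of 411) and 1.03% (17 of 1647), with 7 and 27 shallower barcodes left out, and their intervals of 1.34% to 4.74% and 0.602% to 1.65% overlapped. Requiring 2 FOXP3 UMIs gave 2.15% and 0.478%. The denominators differed strongly: CD4 T barcodes were 418 of 8088 barcodes past the filters in the untreated library and 1674 of 9452 in the A.G.-ES library. As a share of all barcodes with a CD3 UMI and at most 1 B-gene UMI, members were 0.862% (31 of 3597, 0.586% to 1.22%) and 0.843% (54 of 6404, 0.634% to 1.10%), intervals that overlapped almost wholly. As a share of all barcodes past the filters, they were 0.383% and 0.571%, the opposite order.

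FOXP3 UMIs outside the CD4 T gate were rarer. B barcodes, which should lack the gene, had a FOXP3 UMI in 0.368% of 3259 untreated barcodes (median 8821 UMIs) and 0.344% of 1454 A.G.-ES barcodes (median 5268 UMIs). Thinned to 1500 UMIs, these shares were 0.0634% and 0.0702%, below the thinned shares in CD4 T barcodes in both libraries. Monocyte barcodes had 0 of 181 and 0 of 280, where 3 counts, the limit taken for a count of 0, would be shares of 1.66% and 1.07% (upper Clopper-Pearson bounds 2.02% and 1.31%). CD8 T barcodes stood at 0.746% and 0.584%. T barcodes with neither CD4 nor CD8 UMIs had FOXP3 in 0.953% (26 of 2728) and 1.49% (50 of 3364). The rule thus took 31 of 85 untreated and 54 of 129 A.G.-ES barcodes with FOXP3, and the largest group it left out was the 26 and 50 T barcodes without a CD4 UMI.

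**Figure D1:**
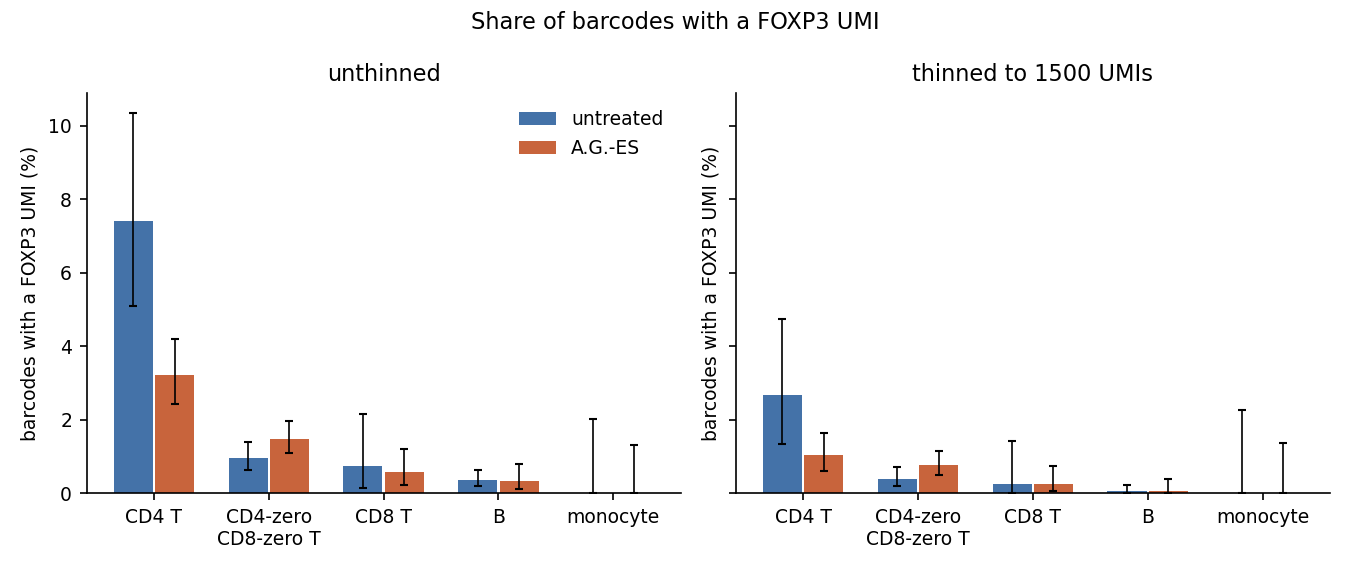
Share of barcodes with at least 1 FOXP3 UMI (percent, vertical axis) in 5 classes of barcodes, as counted (left) and with every barcode thinned to 1500 UMIs (right), for the untreated and the A.G.-ES library. Bars are shares and lines their 95% Clopper-Pearson intervals; CD4 T barcodes had the highest share in both libraries and both panels, at 7.42% and 3.23% as counted.

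The label was checked against 4 Treg markers that the rule did not use, and all 4 were higher in the members of both libraries. IL2RA stood at 286 CPM in untreated members against 48.5 CPM in FOXP3-zero barcodes, and at 296 against 59.7 CPM in the A.G.-ES library (log2 fold 2.34 ± 0.24 SE, adjusted p = 2.29e-19, edgeR). CTLA4 stood at 134 against 20.1 CPM and at 205 against 43.8 CPM (2.32 ± 0.29, adjusted p = 4.09e-13). In each library the members lay above the FOXP3-zero sum for both genes. IKZF2, which encodes Helios, a transcription factor of the Ikaros family common in thymus-derived Treg cells, stood at 922 against 175 CPM and at 289 against 89.7 CPM (1.99 ± 0.19, adjusted p = 1.43e-21). TNFRSF18, which encodes the costimulatory receptor GITR, stood at 299 against 59.0 CPM and at 138 against 24.3 CPM (2.34 ± 0.27, adjusted p = 3.12e-15). Folds are FOXP3-positive over FOXP3-zero from sums per library, fitted with the library as a term. The fit had 1 residual degree of freedom, with its spread shared over genes. The weight of that shared spread was estimated as infinite, so a gene's own disagreement between the libraries did not widen its spread. The SE was taken from the fold and the F statistic of the same test. Neither the SE nor the very small p-values therefore measure how well the libraries agreed on a gene. Leaving the library out of the model left 0 calls, with 510 genes at an unadjusted p under 0.05.

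The markers also met in the same barcodes. At least 2 of the 4 markers had a UMI in 25 of 31 untreated members (80.6%) and 36 of 54 A.G.-ES members (66.7%), against 17.6% and 11.5% of FOXP3-zero barcodes. With barcodes thinned to 1500 UMIs, the shares were 41.9% and 28.3% of members against 6.05% and 2.89%. At least 1 marker was seen in 31 of 31 and 44 of 54 members, so that 10 A.G.-ES members rested on FOXP3 alone.

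Markers were then read by the number of FOXP3 UMIs. In the untreated library IL2RA was at 48.5 CPM in barcodes with 0 FOXP3 UMIs, 312 CPM in the 22 with 1 and 233 CPM in the 9 with 2 or more. In the A.G.-ES library it was at 59.7, 278 and 396 CPM, the last over 8 barcodes. CTLA4 was at 20.1, 66.2 and 272 CPM and at 43.8, 191 and 280 CPM. The step between 0 and 1 UMI exceeded the counting intervals for IL2RA, IKZF2 and TNFRSF18 in both libraries, and the intervals of 1 UMI and of 2 or more overlapped for each of these genes. CTLA4 differed from them in the untreated library, where its interval at 1 UMI (26.6 to 136 CPM) overlapped that at 0 UMIs (14.6 to 27.0 CPM) and lay below that at 2 or more (148 to 456 CPM).

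**Figure D2:**
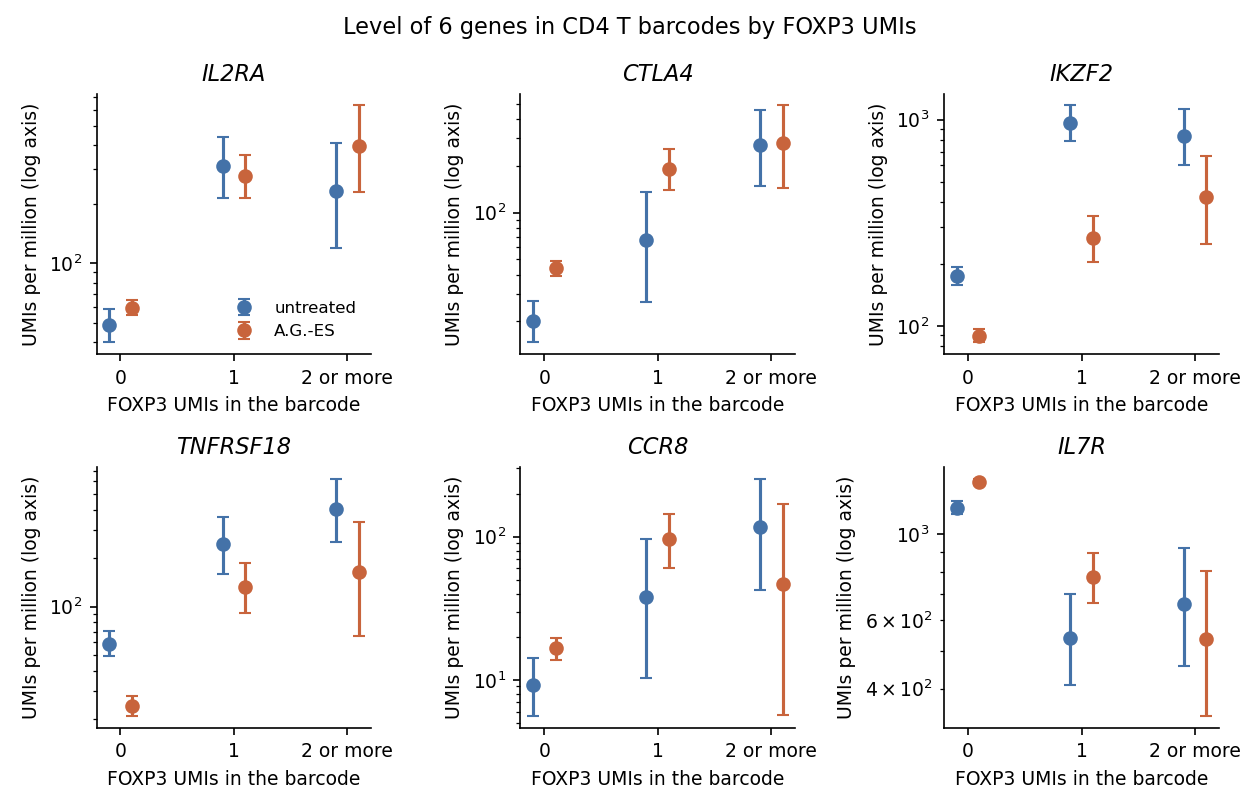
Summed level (CPM, log axis) of 6 genes in CD4 T barcodes with 0, 1 or at least 2 FOXP3 UMIs, in the untreated (387, 22 and 9 barcodes) and A.G.-ES (1620, 46 and 8 barcodes) libraries, with 95% Poisson intervals. IL2RA, IKZF2 and TNFRSF18 step up between 0 and 1 FOXP3 UMI in both libraries, and IL7R steps down, from 1168 to 539 CPM and from 1361 to 773 CPM.

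Across all genes, 87 of 8805 tested were called higher in the members (0.988%) and 127 were called lower (1.44%) at an adjusted p under 0.05 (edgeR quasi-likelihood test). The median log2 fold of all genes tested was -0.044. Scaling by library totals alone gave 109 higher and 104 lower calls. DESeq2 on the same sums gave 23 (0.261%) and 18 (0.204%), all of them among the edgeR calls, and it gave no adjusted p for 29 and 40 of the genes edgeR called. Without the barcodes taken as doublets, edgeR called 107 of 8543 genes higher (1.25%) and 152 lower (1.78%). Of the called genes, 83 of 87 and 127 of 127 had the same direction in both libraries, and for 65 and 94 the counting interval of each library left out a ratio of 1. The calls came from a fit over these same libraries, which favours agreement, so these counts are not a replication. A library with 0 member UMIs counted as lower, and the shares over all genes tested are not given here. The 3 higher calls with a gene symbol that lacked the same direction were CENPF, AIF1 and TYROBP. They are named after their values were seen, and the last 2 rest on the member of 18113 UMIs.

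Genes of 6 lists that describe Treg cells were read by role. Of their 95 members 65 passed the minimum of 50 UMIs, and 12 of these were called higher and 6 lower, with a median log2 fold of 0.11. DESeq2 called 7 higher and 1 lower of the same 65. Those it called too were IL2RA, CTLA4, IKZF2, TNFRSF18, BATF, MAF, GATA3 and SATB1, and it gave no adjusted p for TNFRSF4 and IL1RL1.

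Among transcription factors, 5 of 17 tested were called higher and 2 lower, with a list median of 0.002. Beside IKZF2, BATF, an AP-1 family factor needed for effector Treg cells in tissue, stood at 121 against 36.1 CPM in the untreated library and at 95.2 against 24.3 CPM in the A.G.-ES library (1.80 ± 0.33, adjusted p = 1.39e-05). PRDM1, which encodes the effector regulator Blimp-1, stood at 184 against 83.3 CPM and at 138 against 66.6 CPM (1.02 ± 0.27, adjusted p = 0.00939). MAF rose by a log2 fold of 0.93 (560 against 237 CPM and 518 against 298 CPM). GATA3, the master factor of Th2 cells that a part of Treg cells also carry, stood at 2079 against 1219.7 CPM and at 1848 against 1092 CPM (0.69 ± 0.14). SATB1, a chromatin organiser that FOXP3 is known to repress, fell by 0.88 on the log2 scale (1405 against 1948 CPM and 875 against 1902 CPM, adjusted p = 1.51e-07). RUNX1, a partner of FOXP3, fell by 0.82 (248 against 511 CPM and 247 against 353 CPM). By DESeq2, PRDM1 (adjusted p = 0.273) and RUNX1 (adjusted p = 0.150) were not called. FOXO1 (0.44), BACH2 (-0.37), ETS1 (0.00) and RORA (-0.21) did not pass. IKZF4, which encodes Eos, a FOXP3 partner, had too few UMIs for the test and was at 25.4 against 6.86 CPM and at 31.7 against 2.27 CPM.

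In the interleukin-2 receptor and STAT5 list, 2 of 12 tested genes were called higher and 1 lower. The receptor chains differed from each other. IL2RB, the beta chain, stood at 134 against 40.7 CPM and at 77.6 against 47.0 CPM (1.09 ± 0.32, adjusted p = 0.0283), while the common gamma chain IL2RG was at 197 against 186 CPM and at 300 against 260 CPM (0.09 ± 0.21, adjusted p = 0.968). STAT5B, a signal transducer of this receptor, was lower at 782 against 1071.5 CPM and at 571 against 920 CPM (-0.65 ± 0.16, adjusted p = 0.00333). DESeq2 called neither IL2RB (adjusted p = 0.477) nor STAT5B (adjusted p = 0.102), and in T barcodes without a CD4 UMI the log2 fold of STAT5B was 0.018. Its paralog STAT5A, the kinases JAK1 and JAK3 and the survival gene BCL2 were not called.

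In the TNF receptor and costimulation list, 2 of 8 were called, both higher. TNFRSF4, which encodes OX40, stood at 82.7 against 19.7 CPM and at 35.3 against 16.2 CPM, on 13 and 10 UMIs (1.51 ± 0.45, adjusted p = 0.0335). Its 10 A.G.-ES UMIs came from 4 members, and 6 of them lay in 1 member, so the higher level in that library rested on 1 barcode. TNFRSF1B, the TNF receptor often high on Treg cells, stood at 553 against 497 CPM and at 550 against 539 CPM (0.01 ± 0.17). ICOS (0.38) and CD28 (-0.29), 2 costimulatory receptors of one family, did not pass.

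Of 8 inhibitory receptors tested, CTLA4 was called higher and CD96 lower. CD96, a receptor that shares its ligand with TIGIT, stood at 38.2 against 141 CPM and at 59.9 against 118 CPM (-1.36 ± 0.32, adjusted p = 0.00261 by edgeR and 0.210 by DESeq2). TIGIT was at 57.2 against 22.9 CPM and at 42.3 against 32.6 CPM, on 9 and 12 UMIs, and did not pass (adjusted p = 0.648). The median of this list was 0.73.

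The suppressive mediators were sparse. Only 4 of 14 were abundant enough to test. LGALS1, which encodes galectin-1, was called higher at 426 against 363 CPM and at 398 against 178 CPM (0.66 ± 0.19, adjusted p = 0.0265). It was no longer called without the barcodes taken as doublets (adjusted p = 0.205) or by DESeq2 (adjusted p = 0.477). Of its member UMIs, 26 of 67 untreated and 33 of 113 A.G.-ES lay in 1 member of each library, so the higher untreated level rested on 1 barcode. TGFB1 was at 140 against 100 CPM and at 70.5 against 51.3 CPM (adjusted p = 0.769). IL10 had 0 UMIs in untreated members, which allows up to 19.1 CPM, and 2 UMIs in 1 A.G.-ES member.

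Among 16 tested genes of the remaining Treg signature list, IL1RL1 was called higher and SAMSN1 and S100A4 lower by edgeR. DESeq2 called 0 of the 16, with adjusted p-values of 0.397 for SAMSN1 and 0.269 for S100A4. IL1RL1, the interleukin-33 receptor ST2 carried by tissue Treg cells, stood at 102 against 42.1 CPM and at 63.5 against 14.8 CPM (1.61 ± 0.37, adjusted p = 0.0019). S100A4, a calcium-binding protein common in memory T cells, was at 203 against 596 CPM in the untreated library and at 462 against 503 CPM in the A.G.-ES library (-0.73 ± 0.19, adjusted p = 0.00582). Of its 131 A.G.-ES member UMIs 48 lay in 1 barcode, and without that barcode the A.G.-ES level was 313 CPM.

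**Figure D3:**
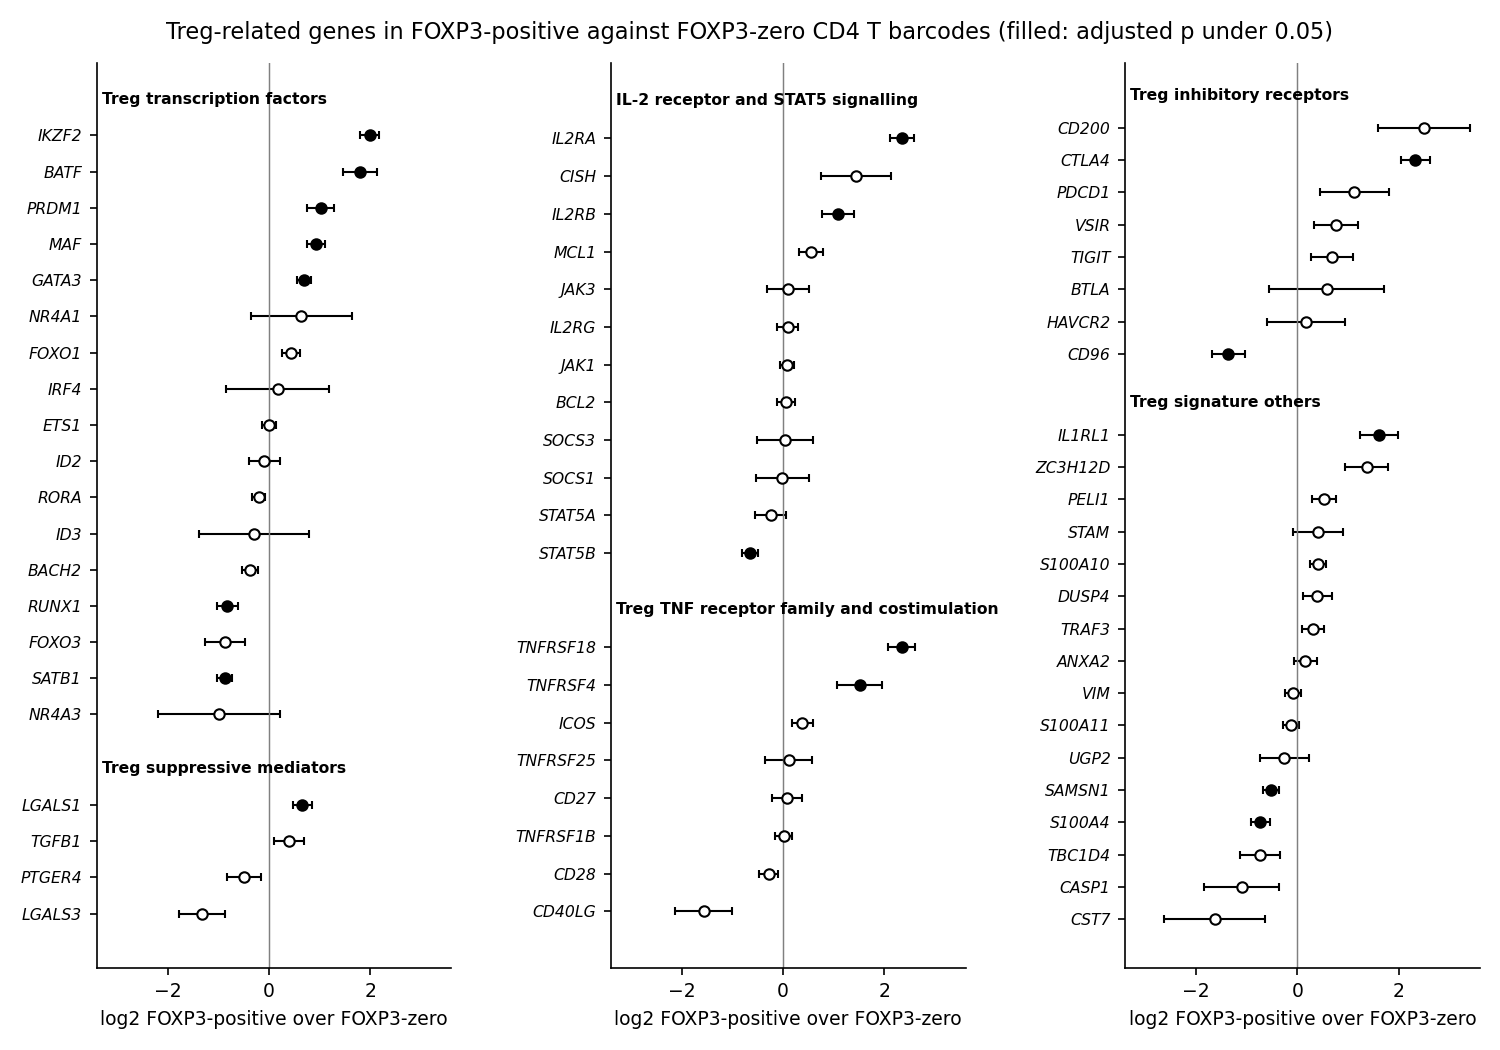
Log2 fold of FOXP3-positive over FOXP3-zero CD4 T barcodes (horizontal axis, edgeR estimate ± SE) for the tested genes of 6 Treg lists, grouped by role. Filled points passed an adjusted p under 0.05; IL2RA, TNFRSF18 and CTLA4 lie near 2.3 and IKZF2 at 1.99, whereas SATB1, RUNX1, STAT5B, CD96, S100A4 and SAMSN1 lie below 0.

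Of 16 homing genes tested 2 were called higher, among them CCR8, a chemokine receptor of tissue and tumour Treg cells. CCR8 stood at 63.6 against 9.15 CPM and at 88.2 against 16.5 CPM (2.47 ± 0.42, adjusted p = 1.03e-06). DESeq2 called 0 of these 16 genes and gave no adjusted p for CCR8. CCR4, ITGAE, S1PR1 and CXCR4 did not pass.

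In the list of naive and central memory genes, 3 of 14 were called higher (TXK and FOXP1 among them) and 4 lower (IL7R, TCF7, LEF1 and SATB1), and the median was 0.002. DESeq2 called 1 higher (TXK) and 2 lower (IL7R and SATB1). IL7R stood at 579 against 1168 CPM and at 737 against 1361 CPM, close to 2-fold lower in both libraries (-1.01 ± 0.16, adjusted p = 2.76e-08). TCF7, which encodes TCF-1, a factor of resting and stem-like T cells, had 3 UMIs in untreated members (19.1 against 147 CPM) and 18 in A.G.-ES members (63.5 against 131 CPM), a log2 fold of -1.62 ± 0.33 (adjusted p = 0.000134 by edgeR and 0.0881 by DESeq2). Its relative LEF1 stood at 865 against 1152 CPM and at 568 against 900 CPM (-0.62 ± 0.16), and its log2 fold was 0.33 in T barcodes without a CD4 UMI. TXK, a Tec-family kinase, stood at 299 against 78.2 CPM and at 141 against 60.5 CPM (1.50 ± 0.25, adjusted p = 1.05e-06).

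GATA3 was the 1 gene called of 9 helper effector genes. THEMIS, an adaptor of T-cell receptor signalling, was the 1 of 16 receptor-signalling genes called, and it was lower (82.7 against 238 CPM and 180 against 274 CPM, -0.97 ± 0.24). NFKBIA, the inhibitor of NF-kB that NF-kB itself induces, was the 1 of 16 immediate early genes called (293 against 93.8 CPM and 152 against 100 CPM, 1.02 ± 0.24). Of the 43 A.G.-ES member UMIs of NFKBIA, 16 lay in 1 member, so the higher level in that library rested largely on 1 barcode. DESeq2 called GATA3 but neither THEMIS (adjusted p = 0.176) nor NFKBIA (adjusted p = 0.192). By edgeR, 0 of 9 cytotoxic and 0 of 12 interferon response genes were called, and DESeq2 called 0 in each. At an unadjusted p under 0.05 edgeR had 2 and 3 of them. The interferon list had a median of 0.35, and IFI6 came nearest, at 203 against 153 CPM and 268 against 131 CPM (adjusted p = 0.0508). Without the barcodes taken as doublets IFI6 was called (adjusted p = 0.0399), and GNLY was called lower (log2 fold -2.08, adjusted p = 0.00427, against -0.15 with them).

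The largest fold among called genes with the same direction in both libraries was that of KIT, the receptor of stem cell factor, best known in mast cells and progenitors. It stood at 127 against 7.78 CPM in untreated members and at 42.3 against 1.39 CPM in A.G.-ES members (4.32 ± 0.63, a 19.9-fold level, adjusted p = 4.87e-09). Its 32 UMIs came from 8 members in each library, and 11 of the 20 untreated UMIs lay in 1 barcode, without which the untreated level was 59.6 CPM. In T barcodes without a CD4 UMI, KIT was also higher with FOXP3 (log2 fold 3.93, adjusted p = 0.000181).

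PDE4D, a phosphodiesterase that degrades cyclic AMP, had the smallest adjusted p of all genes. It stood at 3249 against 637 CPM and at 2007 against 539 CPM (2.05 ± 0.14, adjusted p = 1.35e-44), with UMIs in 28 of 31 and 44 of 54 members. SNX9, a sorting nexin of endocytosis, stood at 235 against 51.2 CPM and at 208 against 39.7 CPM (2.24 ± 0.26). IL10RA, the ligand-binding chain of the interleukin-10 receptor, stood at 44.5 against 11.9 CPM and at 67.0 against 15.7 CPM (1.96 ± 0.45, adjusted p = 0.00162). IL18, a cytokine of the interleukin-1 family, stood at 76.3 against 10.5 CPM and at 42.3 against 17.1 CPM (1.88 ± 0.46). The other genes among the 15 highest were KIAA1671, MCC, SRGAP3, CLNK and TCF4, with log2 folds from 1.91 to 2.82 on 18 to 30 member UMIs each. For MCC, 10 of 18 untreated and 5 of 9 A.G.-ES UMIs lay in 1 member of each library, and without these members its level was 52.7 against 27.9 CPM and 14.4 against 3.79 CPM. CLNK, at 12.7 against 6.86 CPM in the untreated library, rested on the A.G.-ES library, where 7 of its 16 UMIs lay in 1 member, without which its level there was 32.3 against 8.72 CPM.

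Of the 10 lowest called genes, 5 had 0 UMIs in all 85 members, and their folds are bounds against a floor of 3 counts over both libraries. IL17RB, a receptor of interleukin-25 found on Th2-type cells, was at 63.1 and 20.6 CPM in FOXP3-zero barcodes, where 15.8 UMIs would match the members' depth, so it was at least 5.26-fold lower in the members (adjusted p = 5.26e-05). ABCA13, SLPI, RHEX and FBRS were at least 3.82-fold, 2.68-fold, 2.52-fold and 2.32-fold lower. ABCA13 stood at 3.66 CPM in untreated and 38.4 CPM in A.G.-ES FOXP3-zero barcodes, so that its bound rested on the A.G.-ES library. RHEX (adjusted p = 0.361) and FBRS (adjusted p = 0.0534) were not called without the barcodes taken as doublets. JCHAIN, the joining chain of antibody polymers and a transcript of plasma cells, had 1 UMI in each library's members and stood at 239 CPM in untreated FOXP3-zero barcodes but 4.80 CPM in A.G.-ES ones. Its untreated UMIs came from 19 of 387 FOXP3-zero barcodes, so that its call rested on that library. IGF2, ABCA1, BICDL1 and RFLNB each had 1 UMI in the members (log2 folds -3.84 to -3.48).

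**Figure D4:**
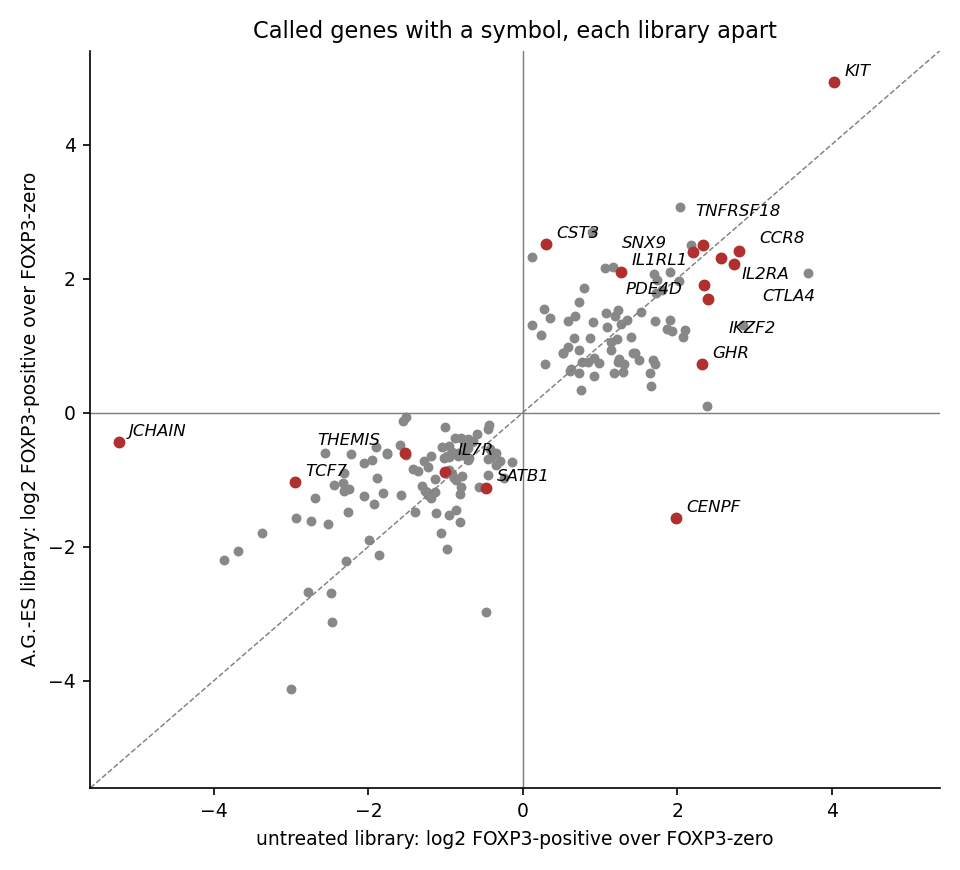
Log2 ratio of summed levels, FOXP3-positive over FOXP3-zero, in the untreated library (horizontal axis) and the A.G.-ES library (vertical axis) for the 182 called genes that have a symbol and UMIs in all 4 sums; the dashed line marks equal ratios and red points are labelled. IL2RA, CTLA4, TNFRSF18, CCR8 and SNX9 lie near the line, and KIT lies above it. CENPF lies above 0 in the untreated and below 0 in the A.G.-ES library, and CST3 and JCHAIN lie near 0 in 1 of the libraries.

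Of 8 proliferation genes tested, edgeR called 1 and DESeq2 called 0. CENPF, a kinetochore protein made in dividing cells, was called higher by edgeR (adjusted p = 0.00167, and 0.999 by DESeq2), with 69 UMIs in 6 untreated members (439 against 111 CPM) and 2 UMIs in A.G.-ES members (7.05 against 21.1 CPM). MKI67, the Ki-67 antigen of dividing cells, had 28 UMIs in 6 untreated members and 5 in 3 A.G.-ES members (adjusted p = 0.342). Summed over 13 measured genes of the list, the level was 2118 against 1376 CPM in the untreated library and 677 against 788 CPM in the A.G.-ES library, and 106 of the 333 untreated UMIs lay in 1 member. Without that member the untreated level was 1525 CPM, a ratio to FOXP3-zero barcodes of 1.11 (0.965 to 1.27).

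Against narrower groups of FOXP3-zero CD4 T barcodes, the same markers stood apart. Compared with the 135 barcodes that carried CCR7, the lymph-node homing receptor of naive cells, 69 of 3515 genes were higher (1.96%) and 65 lower (1.85%). IL2RA was higher by a log2 fold of 3.06, TNFRSF18 by 3.08, CTLA4 by 1.83, IKZF2 by 1.96, PDE4D by 2.57 and GATA3 by 1.47, and LEF1 was lower at -1.25. That comparison rested on 21 untreated and 114 A.G.-ES barcodes, and without the barcodes taken as doublets it gave 15 and 17 calls. Compared with the 1481 CCR7-zero barcodes that carried GATA3, 83 of 8222 genes were higher (1.01%) and 117 lower (1.42%). IL2RA (2.15), CTLA4 (2.34), TNFRSF18 (2.14), IKZF2 (1.97) and CCR8 (2.26) were called higher there, IL7R lower (-1.03), and IL17RB had 0 member UMIs there too. Both groups are subsets of the FOXP3-zero barcodes used above and share the same members.

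The 26 untreated and 50 A.G.-ES T barcodes with FOXP3 but no CD4 UMI gave a look at the same contrast in cells the rule did not use. Against the FOXP3-zero barcodes without CD4 and CD8 UMIs, 71 of 10498 genes were higher (0.676%) and 123 lower (1.17%). Of the 87 genes higher in the members, 64 had the same direction and 30 were called there, and of the 127 lower genes 106 and 36. The median log2 fold of all genes there was -0.16, which favours the lower direction. The share with the same direction over all genes is not given here, so these counts are not a replication. The markers stood out again: IKZF2 by a log2 fold of 2.73 (adjusted p = 3.94e-28), TNFRSF18 by 2.71 (1.96e-07), IL2RA by 2.70 (3.83e-14), CTLA4 by 2.58 (1.43e-08) and CCR8 by 3.26 (2.93e-05). TNFRSF4 (3.14), IL1RL1 (2.60) and PDE4D (2.12) were higher as well. TXK (-0.28), TCF4 (-1.09) and CLNK (-1.12) had the opposite sign there and were not called. The comparator differs too, since T barcodes without CD4 and CD8 UMIs include gamma-delta-like cells.

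The members of the 2 libraries were then set side by side, as a description of 1 library per treatment. Over the 1957 genes with at least 40 UMIs in the members, 58 were at least 2-fold higher in A.G.-ES members with a counting interval that left out 1 (2.96%) and 150 were at least 2-fold lower (7.66%). With totals scaled by TMM, the split turned to 105 higher and 69 lower. In FOXP3-zero barcodes the same genes gave 28 (1.43%) and 33 (1.69%). The FOXP3-zero sums held 2185711 and 7917114 UMIs, against 157260 and 283570 in the members. Counting error alone therefore passes the 2-fold bound more often in the members, so the counts of the 2 classes are not comparable. Of the genes past that bound in the members, 23 of 58 and 21 of 150 were also past it in FOXP3-zero barcodes, and 0 went the other way. The median log2 ratio was -0.19 in the members and -0.20 in FOXP3-zero barcodes, so single ratios are best read against that shift.

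Among the Treg genes, IKZF2 was lower in the A.G.-ES library, at 289 against 922 CPM, a ratio of 0.314 (0.236 to 0.414), and 0.513 (0.453 to 0.583) in FOXP3-zero barcodes. TNFRSF18 was at 138 against 299 CPM, a ratio of 0.460 (0.293 to 0.719), near the 0.411 of FOXP3-zero barcodes. FOXP3 itself was at 226 against 286 CPM, a ratio of 0.789 (0.530 to 1.18) that the rule shaped by requiring 1 UMI. IL2RA had a ratio of 1.04 (0.712 to 1.52), CCR8 of 1.39 (0.643 to 3.23) and CTLA4 of 1.53 (0.916 to 2.66), whose intervals all held 1. PELI1, a ubiquitin ligase of the Treg signature list, was at 70.5 against 382 CPM, a ratio of 0.185 (0.106 to 0.311) against 0.625 in FOXP3-zero barcodes.

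The highest ratios belonged to DUSP2, a phosphatase induced on activation, with 2 untreated UMIs and 50 A.G.-ES UMIs (13.9, 3.64 to 118), and to the mitochondrial transcript COX3 (2169 against 235 CPM, 9.22, 6.61 to 13.2). Both were also high in FOXP3-zero barcodes, at 4.67 and 11.7. RGS2, a regulator of G-protein signalling (5.13), the ribosomal protein gene RPL37A (3.42) and the mitochondrial transcript ND1 (3.03) had ratios of 3.29, 3.33 and 3.96 in FOXP3-zero barcodes. F2R, which encodes a thrombin receptor, had 3.84 against 1.77. CST3 had 6.45, with 107 of its 128 A.G.-ES UMIs in the member of 18113 UMIs. RNF130, NCOA6 and RCC1 had ratios from 3.09 to 3.14. At the low end, CENPF had a ratio of 0.016 (0.0019 to 0.0603), and IFNGR2, the signalling chain of the interferon-gamma receptor, was at 42.3 against 203 CPM (0.208, against 0.396 in FOXP3-zero barcodes). RAP1GDS1, AFAP1, ATP8B4, CHST11, LRPPRC, JARID2 and MTF2 had ratios from 0.202 to 0.299, and from 0.466 to 1.09 in FOXP3-zero barcodes. Genes at both ends were picked by their ratios in the members, and that choice favours less extreme ratios in FOXP3-zero barcodes. The differences between classes were not tested and cannot be read as particular to the members.

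**Figure D5:**
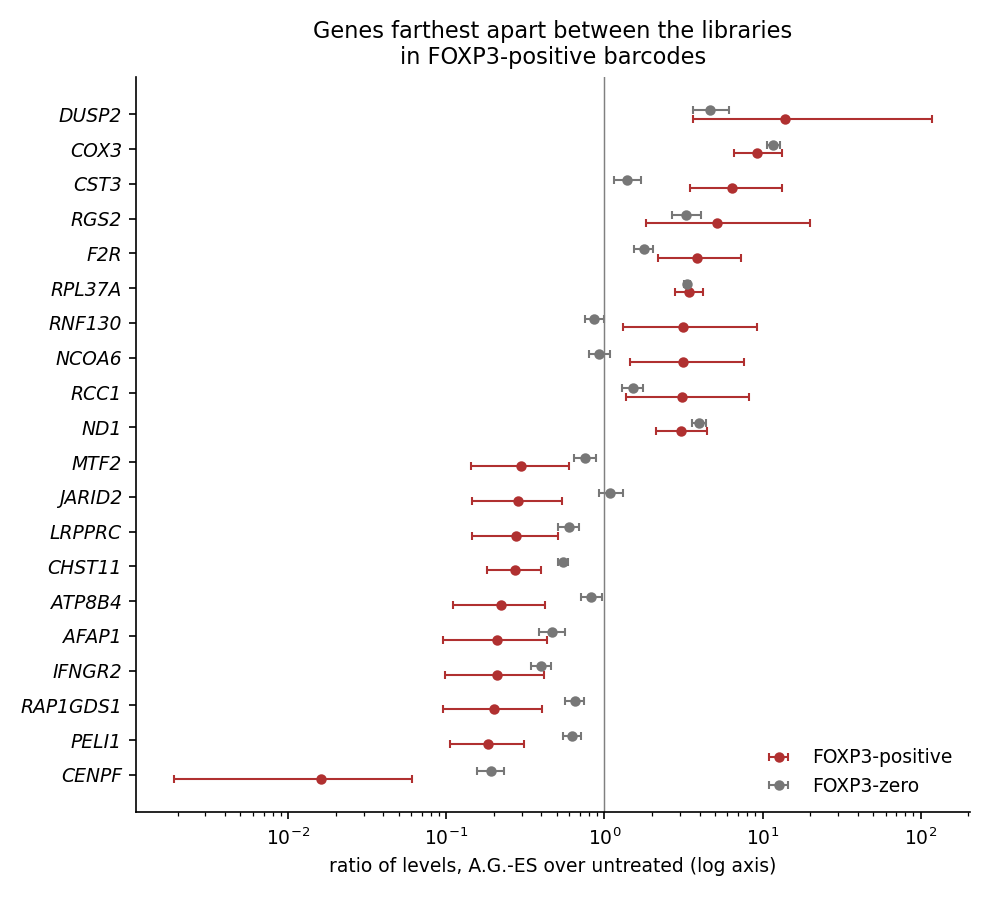
Ratio of summed levels, A.G.-ES over untreated (log axis), for the 10 highest and 10 lowest genes with a symbol and at least 40 UMIs in FOXP3-positive barcodes, with 95% counting intervals, beside the ratio in FOXP3-zero CD4 T barcodes. COX3, RPL37A and ND1 have close ratios in both classes, whereas the interval of CENPF in FOXP3-positive barcodes lies below its FOXP3-zero ratio of 0.190. The genes were picked by their ratios in FOXP3-positive barcodes, which favours less extreme ratios in the other class.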

How the data were processed

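For each of 2 libraries (SeekOne DD 3′ droplet kit, GeneMind SURFSeq sequencer, per the labels' protocols) the authors deposited raw UMI counts per gene and barcode. Alignment, genome build and cell calling count as not given in the sources used here. Counts of rows with the same name were summed, which left 26761 names from 26814 rows, and 0 columns were left aside. All 26761 names are in a RefSeq table of ARS-UI_Ramb_v3.0, used for names and Y linkage only. CD3G was not analysed here, so the rule's CD3 sum used CD3D and CD3E.

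Raw counts were summed per library and class and fitted with edgeR 4.0.16 (R 4.3.3; quasi-likelihood test, TMM, library as a term) over genes with at least 50 UMIs in the 4 sums, with Benjamini-Hochberg adjustment at 0.05. Genes of the rule got no test. Barcodes are not replicates, and the libraries are also the treatments. CPM are UMIs per 1000000 of a sum, with exact Poisson intervals. Ratios have exact conditional binomial intervals and shares Clopper-Pearson intervals. Doublets were scored with Scrublet (scanpy 1.11.5), and the highest 0.8% per 1000 barcodes (523 and 715) were removed as an alternative. In simulated counts (8809 genes), edgeR called 41 of 50 genes raised by a log2 fold of 2, 4 of 50 raised by 1, 19 of 50 lowered by 2 and 3 of 50 lowered by 1, with 2 false calls. The simulation gave every gene the same spread (dispersion 0.05), the same fold in both libraries and no UMIs piled up in single barcodes. It therefore cannot give the rate of false calls in the real counts. DESeq2 1.42.0, other filters, depth-matched comparators, thinning and each library alone were tried. Levels without the member with the most UMIs were added after seeing the data.

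The members and the 19 gene lists were chosen with earlier results of these data known. Named genes have a symbol and are the Treg list members with at least 20 UMIs, the 15 highest and 10 lowest called folds of the same direction in both libraries, the 10 highest and 10 lowest ratios between libraries, and in other lists the 4 most abundant members and those called. Named genes are not all given, and some results are not reported here.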

Additional observations from a re-analysis of the deposited data

Results flagged for a closer look

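In 3 genes the members lay on opposite sides of FOXP3-zero barcodes in the 2 libraries, with counting intervals that left out a ratio of 1 in each. The difference between the libraries was not tested, and none of the 3 was called in the fit over both libraries. The share of such genes over all genes is not given here, and the intervals leave out spread between barcodes. Whether 3 is more than counting and that spread would give therefore cannot be told. ANXA2, a membrane-binding annexin of effector T cells, had a ratio of FOXP3-positive over FOXP3-zero of 0.600 (0.363 to 0.938) in the untreated library and 1.80 (1.36 to 2.33) in the A.G.-ES library. S100A11, a calcium-binding partner of annexins, had 0.725 (0.599 to 0.871) and 1.22 (1.07 to 1.38). NCOA6, a nuclear receptor coactivator, had 0.471 (0.201 to 0.944), on 8 UMIs, and 1.58 (1.14 to 2.14).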

How the results depend on the processing

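Requiring 2 FOXP3 UMIs (17 members) left 15 higher and 50 lower calls, DESeq2 23 and 18, and no library term 0 and 0, whereas not requiring CD4, chosen after seeing the data, gave 153 and 220. Against CCR7-positive barcodes, calls were 15 and 17 without doublets, 9 and 8 by DESeq2, and 32 and 25 with a minimum of 200 UMIs; against GATA3-positive barcodes DESeq2 gave 22 and 16. The share of CD4 T barcodes was 2.68% and 1.03% thinned to 1500 UMIs, 1.92% and 0.901% thinned to 1000, and 2.15% and 0.478% with 2 FOXP3 UMIs. The median of the 6 Treg lists was -0.0848 with 2 FOXP3 UMIs, 0.18 without TMM, 0.18 in CD4-zero barcodes (chosen after seeing the data), 0.20 for untreated barcodes alone and 0.24 for A.G.-ES barcodes alone. The median of all genes also moved, from -0.044 in the main fit to -0.41 with 2 FOXP3 UMIs. It was 0.027 without TMM and -0.16 in CD4-zero barcodes. List medians are best read against these values. Genes 2-fold apart between the libraries were 105 and 69 with TMM-scaled totals and 19 and 32 after thinning. In the A.G.-ES library alone CENPF reversed to -1.56. With 2 FOXP3 UMIs CST3 (-0.15), IL18 (-0.65) and MCC (-8.34) reversed, and none of these was called (adjusted p = 0.996, 0.990 and 0.955, edgeR). MCC had 27 UMIs over all 85 members, so its fold over these 17 lies near the floor and does not measure a size. In CD4-zero barcodes reversed log2 folds included ABCA13 0.91, CCL5 -1.81, CD28 1.66, CD79A -1.35, CLNK -1.12, CST3 -0.018, CTSW -3.14, FBRS 0.053, LEF1 0.33, RORA 0.54, SOX4 -1.25, STAT5B 0.018, TCF4 -1.09 and TXK -0.28. The causes were not tested. Without doublets, 76 of the 87 higher and 116 of the 127 lower genes were still called, but CST3 was not (0.30, adjusted p = 0.862). The main fit paired the classes of barcodes by library. Between the treatments no paired analysis was possible, because the labels give 1 library per group. Depth limits sparse genes: most members had 1 FOXP3 UMI.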

Other observations

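Outside the lists, other genes with small adjusted p-values are named here after their values were seen, so they stand as description. PAG1, an adaptor that restrains Src-family kinases at the T-cell receptor, was at 293 against 1470.5 CPM in the untreated library and at 434 against 896 CPM in the A.G.-ES library (log2 fold -1.66 ± 0.17, adjusted p = 5.14e-19, edgeR). GAB2, an adaptor that binds the phosphatase SHP2, was at 19.1 against 280 CPM and at 42.3 against 194 CPM (-2.81 ± 0.33). RNF144A, a ubiquitin ligase, had 7 UMIs in all members (-3.32 ± 0.43). The zinc-finger factors ZBTB20 (-1.94) and ZBTB16 (-2.79), the latter being PLZF of innate-like T cells, were lower, as were the potassium channel gene KCNQ5 (-1.31) and FKBP5 (-1.18), a gene that glucocorticoids induce. PAG1, GAB2, RNF144A, ZBTB20 and FKBP5 were also called lower in the CD4-zero barcodes with FOXP3.

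On the higher side, SWAP70, an actin-binding signalling protein, was at 420 against 129 CPM and at 441 against 105 CPM (1.83 ± 0.20, adjusted p = 6.34e-17), but not in CD4-zero barcodes (-0.10, adjusted p = 0.993). GHR, the growth hormone receptor, was at 1501 against 300 CPM in the untreated library and at 508 against 307 CPM in the A.G.-ES library, ratios of 5.01 (4.30 to 5.82) and 1.65 (1.39 to 1.96). The edgeR and DESeq2 fits parted on GHR, with adjusted p-values of 3.12e-15 and 0.664. TOX, a factor of chronically stimulated T cells, was at 1215 against 649 CPM and at 628 against 247 CPM (1.05 ± 0.16, adjusted p = 3.1e-08), and was also called in CD4-zero barcodes (1.46).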
